A study of Mus musculus with 2 samples.

Results

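General splicing factors are described here in cultured neural stem cells of the mouse, which renew themselves and can form neurons and glia. They are the genes of the deposited expression table whose symbol names a serine/arginine-rich splicing factor (Srsf with a number), a heterogeneous nuclear ribonucleoprotein (Hnrnp), a subunit of the SF3A or SF3B complex, or a U2 auxiliary factor (U2af). The rule found 44 of the 17359 genes in the table: 11 SR proteins, 21 hnRNP genes, 3 of SF3A, 6 of SF3B and 3 of U2AF. The rule uses gene symbols and no measured value, though it was written with earlier results of these data known. Cells were transfected with an siRNA against Chd4 mRNA (siChd4, labelled a Chd4 knockdown, 1 library), or with a scrambled siRNA (siSCR, labelled control, 1 library). Chd4 protein is a helicase-like ATPase of NuRD, a complex that moves nucleosomes and removes acetyl groups from histones. The series concerns Seh1, a nuclear pore subunit, in neurogenesis, and the labels name no other allele or agent in either group. The sources used here do not give the strain or age of the animals, the origin of the cultures, or the siRNA amount and duration.

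With 1 library per group there is no estimate of the spread between cultures, so no difference below has a test or a replicate check. Levels are in TPM, an abundance that is corrected for transcript length and sums to the same total in each library. The log2 ratio is that of siChd4 over siSCR after a pseudocount of 1 was added to each TPM, and a fold is the plain ratio of TPM values. The range after a fold is its 95% Clopper-Pearson (exact) interval from the estimated counts, which covers counting error only. A gene was counted as past the limit when its log2 ratio was beyond 0.32 in either direction. RNA came from whole cultures, so fewer cells of a type and less RNA per cell cannot be told apart.

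The libraries held 20072009 (siChd4) and 19816811 (siSCR) estimated counts. Chd4 was at 203 TPM in siChd4 against 250 TPM in siSCR, a fold of 0.815 (0.795 to 0.836). Its log2 ratio of -0.29 fell short of the limit, and 19.4% of all genes had a lower one. Markers of neural stem cells were abundant, with 8 of 8 above 1 TPM, 5 of 8 higher in siChd4 and a summed level of 12721 TPM in siChd4 against 10249 TPM in siSCR. Most of that sum was Fabp7 (7004 TPM in siChd4 against 6105 TPM in siSCR) and Vim (4835 TPM in siChd4 against 3340 TPM in siSCR). Vim was the 1 past the limit. Pax6 (0.861-fold), Sox1 (0.912-fold) and Msi1 (0.907-fold) were lower in siChd4, with intervals below 1. Neuron markers were higher in siChd4 for 5 of 5 genes, with a sum of 572 TPM in siChd4 against 442 TPM in siSCR, most of it Map2 at 516 TPM in siChd4 against 427 TPM in siSCR. Of these, 4 of 5 were past the limit, with Tubb3 at 4.60-fold (3.76 to 5.67), Dcx at 2.93-fold (2.54 to 3.38) and Syt1 at 2.21-fold (1.58 to 3.13), while the interval of Rbfox3 (0.946 to 2.62) includes 1. Levels in siChd4 and siSCR were 40.0 and 8.70 TPM for Tubb3, 10.9 and 3.71 TPM for Dcx, and 3.29 and 1.49 TPM for Syt1. Oligodendrocyte lineage markers were higher for 5 of 5 as well, 4 of them past the limit, with a sum of 71.9 TPM in siChd4 against 42.4 TPM in siSCR. Sox10 was at 7.71 TPM in siChd4 against 1.05 TPM in siSCR (7.34-fold, 4.69 to 12.0), with a log2 ratio of 2.09 after the pseudocount. Astrocyte markers summed to 456 TPM in siChd4 against 346 TPM in siSCR, most of it Aldh1l1, and 2 of the 4 were higher. None of the 4 microglia markers reached 1 TPM, and Aif1 was listed at 0 in siSCR. The part of these marker differences in the values below was not tested.

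Splicing removes introns in steps that these proteins start. U2AF binds the pyrimidine tract and the AG at the end of an intron, and SF3A and SF3B then hold the U2 small nuclear ribonucleoprotein (snRNP) on the branch site. SR proteins mostly bind enhancers in exons through RNA recognition motifs and recruit U1 snRNP and U2AF through their arginine/serine-rich domains. hnRNPs coat nascent RNA, and many of them bind silencers and oppose the use of nearby splice sites. Many SR and hnRNP genes limit their own output by including a so-called poison exon, which sends the transcript to nonsense-mediated decay. In neural progenitors the balance between splicing regulators is known to set the exons used before and after neurons form.

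As a group the splicing factors were slightly lower in siChd4. All 44 had a mean level of at least 1 TPM, and 42 were at 50 TPM or more. Their summed level was 13567 TPM in siChd4 against 15999 TPM in siSCR, a fold of 0.848, or 1.36% of all transcripts in siChd4 against 1.60% in siSCR. Of the 44, 33 had a log2 ratio below 0, where the share over the 12882 genes of at least 1 TPM was 55.3% and that over the 4285 genes of at least 50 TPM was 56.8%. The median log2 ratio was -0.16, against -0.04 over all genes, and the middle 50% of the members lay between -0.24 and -0.03. The middle 50% of all genes lay between -0.24 and 0.17, so most members were within the common range of the table.

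Large differences were not seen. Past the limit, 4 members were lower in siChd4, which is 9.09% of them, against 17.1% of all genes and 13.0% of genes of at least 50 TPM. At the same limit 2 members were higher, against 14.9% of all genes and 8.75% of genes of at least 50 TPM. Neither count stands above the background, and the 4 genes, all hnRNPs, are 19.0% of that class. No member reached 1.5-fold on the TPM plus 1 scale, where 4.47% of all genes were lower and 6.75% higher, and none reached 2-fold (0.629% lower and 2.26% higher). The split of all genes depended on the scaling: past the limit, 10.9% were lower and 15.6% higher on FPKM, and 12.7% lower and 17.0% higher with the trend of ratios with length subtracted. The members then numbered 2 lower and 1 higher on FPKM, and 3 lower and 1 higher without the length trend. Of the 44 members, 33 were lower in siChd4 and 11 higher, mostly by small differences.

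**Figure D1:**
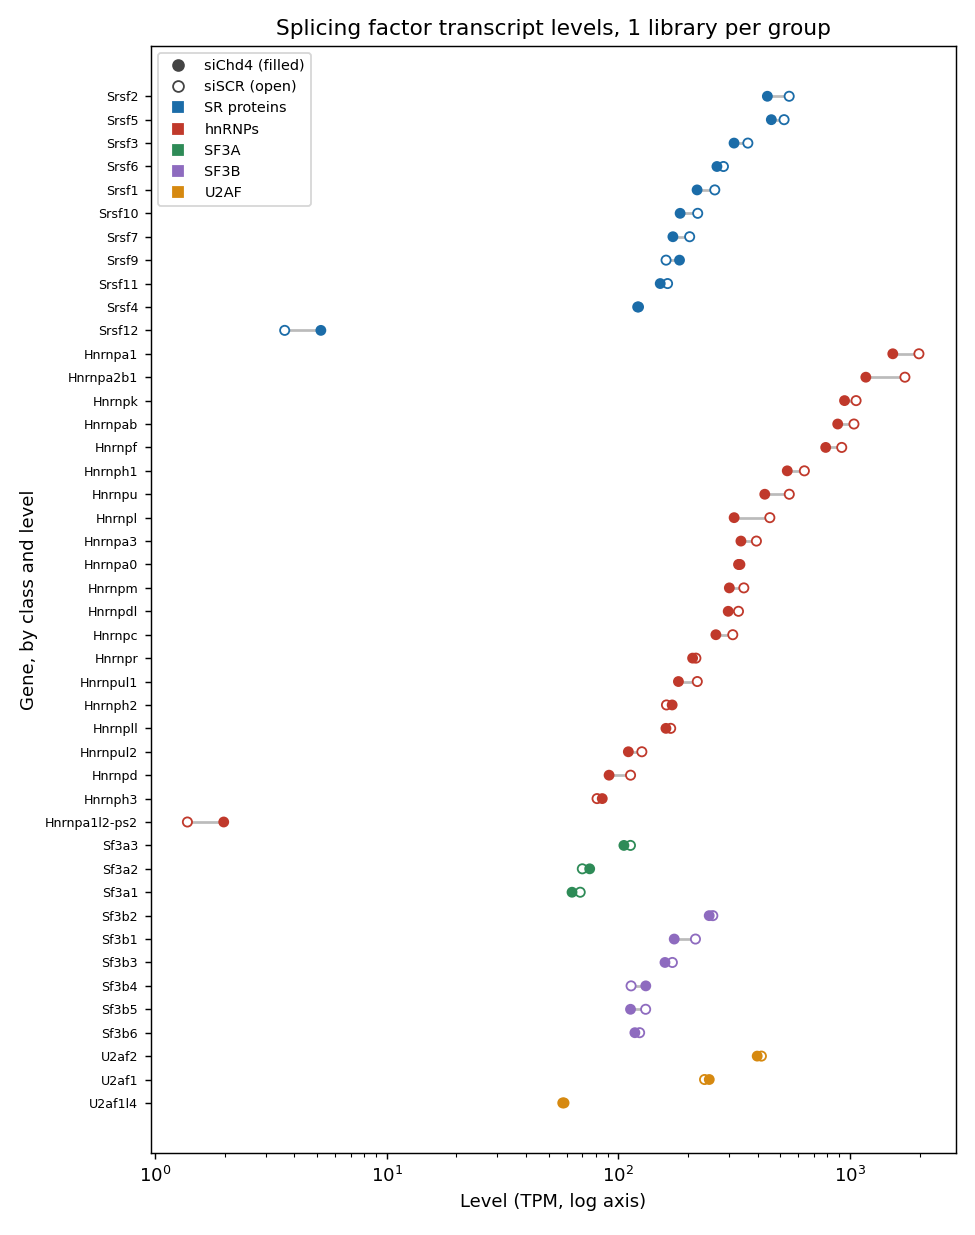
Level of each of the 44 genes in siChd4 (filled points) and siSCR (open points), in TPM on a log axis, 1 library per group, by class and mean level. Most hnRNP and SR genes have the filled point to the left of the open one, and Srsf12 and the pseudogene Hnrnpa1l2-ps2 lie far to the left of the rest.

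Genes with low and with high ratios are shown first with their promoters. Hnrnpa2b1, Hnrnpl and Hnrnpa1 had the lowest log2 ratios, and Srsf9 and Srsf12 the highest among SR genes. Outside the SR genes, Sf3b4 (0.21) and the pseudogene Hnrnpa1l2-ps2 (0.32) were also above Srsf9 (0.19), and their promoters are not shown. The stretches below run from 250 bases before to 50 bases after the annotated RefSeq start, on assembly GRCm38.p6, which is not the mm39 build of the table. Each is written 5′ to 3′ on the strand of the gene, and capitals mark a CCAAT box, the binding motif of the factor NF-Y, read as CCAAT or as ATTGG on the other strand. Hnrnpa2b1 lies at chr6:51469845-51470144 (minus strand), and is the first of 2 promoters listed for it by RefSeq. Hnrnpl lies at chr7:28810640-28810939 (plus), Hnrnpa1 at chr15:103240147-103240446 (plus), Srsf9 at chr5:115326927-115327226 (plus) and Srsf12 at chr4:33209022-33209321 (plus).

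Hnrnpa2b1: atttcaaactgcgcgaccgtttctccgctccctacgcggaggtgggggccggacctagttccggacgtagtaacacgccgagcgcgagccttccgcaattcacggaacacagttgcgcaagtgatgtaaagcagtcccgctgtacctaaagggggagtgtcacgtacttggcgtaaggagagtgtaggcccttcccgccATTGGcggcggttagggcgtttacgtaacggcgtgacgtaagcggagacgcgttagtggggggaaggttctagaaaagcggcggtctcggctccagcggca
Hnrnpl: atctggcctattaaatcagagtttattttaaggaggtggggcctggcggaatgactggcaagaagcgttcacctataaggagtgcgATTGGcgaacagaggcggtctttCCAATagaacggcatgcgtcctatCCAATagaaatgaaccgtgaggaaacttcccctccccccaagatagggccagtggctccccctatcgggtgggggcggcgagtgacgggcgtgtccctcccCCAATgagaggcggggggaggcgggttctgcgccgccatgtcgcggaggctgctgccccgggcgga
Hnrnpa1: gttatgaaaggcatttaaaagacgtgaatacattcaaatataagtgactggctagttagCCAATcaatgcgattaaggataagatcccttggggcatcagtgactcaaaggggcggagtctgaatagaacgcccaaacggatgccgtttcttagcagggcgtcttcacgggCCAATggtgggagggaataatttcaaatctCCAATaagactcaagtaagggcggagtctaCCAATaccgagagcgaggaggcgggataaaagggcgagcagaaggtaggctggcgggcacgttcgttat
Srsf9: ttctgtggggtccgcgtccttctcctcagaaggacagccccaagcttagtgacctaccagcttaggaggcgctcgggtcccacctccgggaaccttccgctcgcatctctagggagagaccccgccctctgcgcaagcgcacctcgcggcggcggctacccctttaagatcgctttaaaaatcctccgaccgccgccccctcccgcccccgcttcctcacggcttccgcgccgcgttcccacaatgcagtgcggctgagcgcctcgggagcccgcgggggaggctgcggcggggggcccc
Srsf12: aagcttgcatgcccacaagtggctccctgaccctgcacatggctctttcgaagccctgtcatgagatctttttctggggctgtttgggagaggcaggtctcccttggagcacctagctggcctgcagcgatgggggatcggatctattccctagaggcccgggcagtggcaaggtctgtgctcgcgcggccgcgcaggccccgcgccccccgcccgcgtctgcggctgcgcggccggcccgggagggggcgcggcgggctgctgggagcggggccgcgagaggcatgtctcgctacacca

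The Hnrnpl and Hnrnpa1 promoters hold 4 CCAAT boxes each and that of Hnrnpa2b1 holds 1, while those of Srsf9 and Srsf12 hold 0. RefSeq promoters were matched for 39 of the 44 genes, with 53 starts in all. Hnrnpll, Hnrnpul2, Sf3b4, Sf3b5 and U2af2 were not matched. A CCAAT box stood in 50.9% of the 53 promoters, against 38.1% of the 13311 promoters of genes of at least 1 TPM. The GC box (GGGCGG or CCGCCC) stood in 75.5% against 62.2%, and TATAAA or TTTATA in 11.3% against 6.87%. A match of letters is a description, not a shown binding site.

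The members can be described by the presence of a CCAAT box. The 21 members with at least 1 box had a median log2 ratio of -0.23, and 17 of them were below 0. For the 10 with 2 or more boxes the median was also -0.23, and 8 were below 0. The 18 without a box had a median of -0.10, and 12 were below 0. Over the 10330 genes of at least 1 TPM with a matched promoter, the medians were -0.04 with a box and -0.04 without. This grouping was made after the values were seen and has no test.

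Among the hnRNPs, the RNA-coating proteins, 17 of 21 genes were below 0, and the median log2 ratio was -0.22. Their summed level was 9156 TPM in siChd4 against 11180 TPM in siSCR, a fold of 0.819, the lowest of the 5 classes. The 4 members past the limit on the lower side were Hnrnpa2b1, Hnrnpl, Hnrnpa1 and Hnrnpu. Hnrnpa1, Hnrnpa2b1 and Hnrnpl together made 47.1% of the summed TPM difference of the 44 genes. Without these 3, the other 41 genes summed to 10547 TPM in siChd4 against 11833 TPM in siSCR, a fold of 0.891.

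Hnrnpa2b1 (Entrez 53379) encodes the A2 and B1 proteins, which bind and traffic RNA and regulate splicing. It was at 1172 TPM in siChd4 against 1728 TPM in siSCR, a fold of 0.678 (0.666 to 0.690) and a log2 ratio of -0.56. It was the lowest of the 44, and 4.99% of all genes had a lower ratio. Of 21 other genes within 0.5 of its level and length on the log2 scale, 0 had a lower ratio, and their median was 0.01. The transcript length behind its TPM was 1.04 times as long in siChd4 relative to other genes. Its log2 ratio was -0.46 in CPM, which are not divided by length.

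Hnrnpl (Entrez 15388), whose protein binds CA-rich RNA, was at 316 TPM in siChd4 against 451 TPM in siSCR. Its fold was 0.701 (0.677 to 0.726) and its log2 ratio -0.51. Of 154 genes of like level and length, 0.649% had a lower ratio. The paralog Hnrnpll, known for the alternative splicing of CD45 in T cells, was at 161 TPM in siChd4 against 168 TPM in siSCR, a fold of 0.954 (0.913 to 0.997). The intervals of these paralogs do not overlap.

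Hnrnpa1 (Entrez 15382), a strong splicing silencer and the most abundant of the 44, was at 1532 TPM in siChd4 against 1986 TPM in siSCR. The fold was 0.771 (0.758 to 0.785) and the log2 ratio -0.37, and on FPKM it fell just short of the limit. Apart from Hnrnpa2b1, the other genes of the A/B family were nearer to equal. Of 23 genes of like level and length to Hnrnpa1, 8.70% had a lower ratio. Hnrnpab was at 886 TPM in siChd4 against 1041 TPM in siSCR (0.851-fold, 0.834 to 0.868), and Hnrnpa3 was at 339 TPM in siChd4 against 395 TPM in siSCR (0.857-fold, 0.838 to 0.877). Hnrnpa0, the family member with a single annotated transcript, was at 335 TPM in siChd4 against 331 TPM in siSCR (1.01-fold, 0.981 to 1.05). The family thus ranged from 0.678-fold for Hnrnpa2b1 to 1.01-fold for Hnrnpa0. The pseudogene Hnrnpa1l2-ps2 was at 1.98 TPM in siChd4 against 1.38 TPM in siSCR from 18.4 counts in siChd4 and 12.2 in siSCR, and its interval of 0.647 to 3.23 includes 1. Pseudogenes of hnRNP genes can share reads with their parents, so its value is uncertain.

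Hnrnpu (Entrez 51810), which binds RNA and the nuclear scaffold, was at 429 TPM in siChd4 against 547 TPM in siSCR. The fold was 0.784 (0.769 to 0.799) and the log2 ratio -0.35, just past the limit. Of 29 genes of like level and length, 17.2% had a lower ratio, and their median was -0.13. It fell short of the limit under each other scaling tried, with -0.29 on FPKM and -0.25 once the trend with length was taken out. Its relatives Hnrnpul1 (182 TPM in siChd4 against 219 TPM in siSCR) and Hnrnpul2 (111 TPM in siChd4 against 126 TPM in siSCR), known from the response to DNA damage, had folds of 0.829 and 0.874. All 3 genes of this family were lower in siChd4, where the share over all genes was 55.3%. Of 262 genes of like level and length to Hnrnpul2, 43.1% had a lower ratio, and their median was -0.16. For Hnrnpul1 the share was 17.0% of 265 genes, with a median of -0.09.

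The G-tract binders of the H/F family did not share a direction. Hnrnph1 was at 537 TPM in siChd4 against 636 TPM in siSCR (0.844-fold, 0.820 to 0.868) and Hnrnpf at 786 TPM in siChd4 against 922 TPM in siSCR (0.853-fold, 0.834 to 0.872). Hnrnph2, the X-linked paralog of Hnrnph1, was at 171 TPM in siChd4 against 161 TPM in siSCR (1.06-fold, 1.01 to 1.11), and Hnrnph3 at 85.3 TPM in siChd4 against 81.0 TPM in siSCR (1.05-fold, 0.963 to 1.15). The more abundant pair was lower and the less abundant pair was equal or slightly higher in siChd4. Paralogs this similar can share reads, and how the authors' counting divided such reads is not known here.

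The remaining hnRNPs lay between 0.808-fold and 0.968-fold. Hnrnpd, which binds AU-rich elements and is linked to mRNA decay, was at 91.3 TPM in siChd4 against 113 TPM in siSCR (0.808-fold, 0.778 to 0.838). Its like Hnrnpdl was at 298 TPM in siChd4 against 330 TPM in siSCR (0.903-fold). Hnrnpc, which binds uridine tracts and packages nascent transcripts, was at 264 TPM in siChd4 against 312 TPM in siSCR (0.845-fold). Hnrnpm, which binds GU-rich RNA, was at 302 TPM in siChd4 against 348 TPM in siSCR (0.866-fold) and the C-tract binder Hnrnpk at 948 TPM in siChd4 against 1064 TPM in siSCR (0.892-fold). Hnrnpr, a relative of Syncrip, was closest to equal, at 209 TPM in siChd4 against 216 TPM in siSCR (0.968-fold, 0.929 to 1.01).

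**Figure D2:**
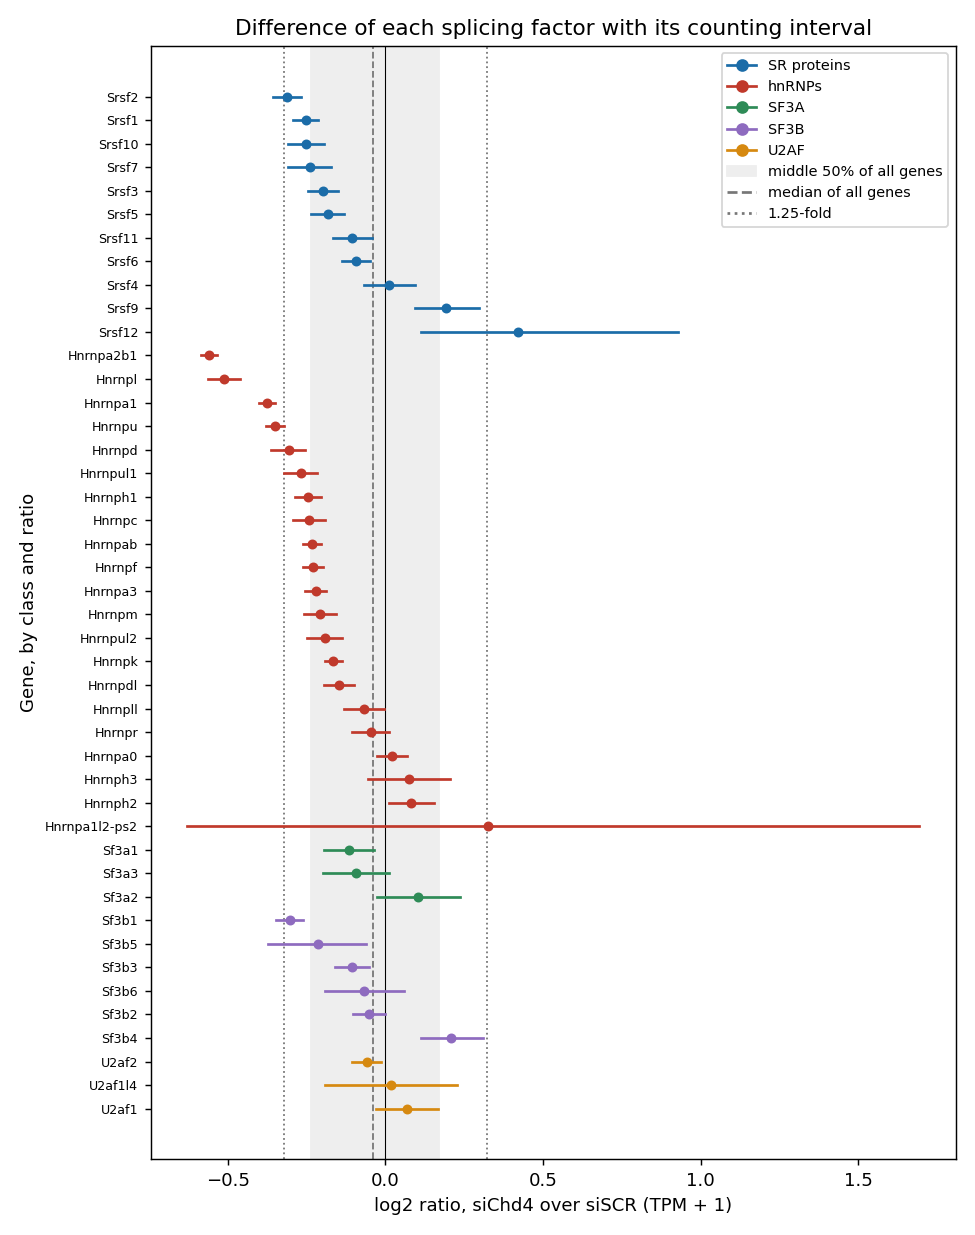
Log2 ratio of each gene (points, TPM plus 1 scale) with the exact 95% counting interval of its TPM fold (lines), by class. The grey band is the middle 50% of all genes (-0.24 to 0.17), and 4 hnRNPs lie left of the lower dotted line (log2 ratio -0.32) while Srsf12 and the pseudogene lie right of the upper one.

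Among the SR proteins, which bind exons and promote splicing, 8 of 11 were below 0 and the median log2 ratio was -0.18. Their summed level was 2520 TPM in siChd4 against 2848 TPM in siSCR, a fold of 0.885. Of the 11, 0 were past the limit on the lower side and 1, Srsf12, on the higher side. The class was lower by a narrow margin, with 6 genes between 0.805-fold and 0.881-fold.

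Srsf2 (Entrez 20382), an activator found in nuclear speckles, was the lowest SR gene, at 440 TPM in siChd4 against 547 TPM in siSCR. Its fold was 0.805 (0.780 to 0.831), and its log2 ratio of -0.31 fell just short of the limit. Of the 102 genes of like level and length, 7.84% had a lower ratio. Srsf2 shares 15.6% of its annotated exon bases with Mettl23 and 9.7% with Mfsd11 on the opposite strand. Such overlaps exist for 16 members, the larger ones being Srsf4, Hnrnpab (29.1% with Phykpl) and Sf3a2 (16.1% with Plekhj1), and whether reads were counted by strand is not known here.

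Srsf1 (Entrez 110809), the founding SR protein and a regulator of splice site choice, was at 219 TPM in siChd4 against 261 TPM in siSCR (0.839-fold, 0.816 to 0.862). Srsf10, which represses splicing when it loses phosphate, was at 185 TPM in siChd4 against 220 TPM in siSCR (0.840-fold, 0.806 to 0.874). Srsf3 and Srsf7, which also help export mRNA, were at 316 TPM in siChd4 against 363 TPM in siSCR (0.872-fold, 0.843 to 0.901) and 172 TPM in siChd4 against 203 TPM in siSCR (0.847-fold, 0.808 to 0.887). These 4 genes had overlapping intervals.

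The relatives Srsf4, Srsf5 and Srsf6 did not share a difference. Srsf5 was at 458 TPM in siChd4 against 520 TPM in siSCR (0.881-fold, 0.850 to 0.913), and Srsf6 at 267 TPM in siChd4 against 284 TPM in siSCR (0.937-fold, 0.908 to 0.967). Srsf4 was at 122 TPM in siChd4 against 121 TPM in siSCR (1.01-fold, 0.953 to 1.07). For Srsf4 the transcript length behind the TPM was 0.945 times as long in siChd4, the lowest of the 44, and its log2 ratio turned to -0.03 in CPM, which are not divided by length. It also shares 43.0% of its annotated exon bases with the opposite-strand transcript Gm12992, so its value is uncertain.

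Srsf9 and Srsf12 had the highest ratios of the SR genes. Srsf11, known for the splicing of neuronal microexons, was at 152 TPM in siChd4 against 163 TPM in siSCR (0.930-fold, 0.891 to 0.970). Srsf9, a small SR protein close to Srsf1, was higher, at 184 TPM in siChd4 against 161 TPM in siSCR (1.14-fold, 1.07 to 1.23). Srsf12 (Entrez 272009), the scarce paralog of Srsf10, was at 5.20 TPM in siChd4 against 3.63 TPM in siSCR (1.43-fold, 1.08 to 1.90), on 130 counts in siChd4 and 85.9 in siSCR. Its log2 ratio was 0.42, and 89.3% of all genes had a lower one. Among 428 genes of like level and length the share with a lower ratio was 75.9%. The paralogs Srsf10 and Srsf12 were thus on opposite sides, and their intervals do not overlap.

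The U2 snRNP subunits of SF3B and SF3A were near the median of all genes. Of 6 SF3B genes, 5 were below 0, with a median of -0.09 and sums of 943 TPM in siChd4 against 1011 TPM in siSCR. Sf3b1 (Entrez 81898), the large subunit that clamps the branch site, was at 174 TPM in siChd4 against 215 TPM in siSCR, a fold of 0.810 (0.787 to 0.833). Genes of its level and length had a median of -0.17, and 28.7% of them were lower. Sf3b5, one of the smallest subunits, was at 113 TPM in siChd4 against 131 TPM in siSCR (0.860-fold, 0.772 to 0.958). Sf3b1 and Sf3b5 were the lowest of the complex.

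Sf3b3, a scaffold of the complex, was at 159 TPM in siChd4 against 171 TPM in siSCR (0.929-fold, 0.895 to 0.964). Sf3b2, the partner of Sf3b4, was at 247 TPM in siChd4 against 256 TPM in siSCR (0.965-fold, 0.932 to 0.999) and Sf3b6, which lies at the branch adenosine, at 118 TPM in siChd4 against 124 TPM in siSCR (0.954-fold, 0.875 to 1.04). Sf3b4 (Entrez 107701), which contacts RNA upstream of the branch site, was the exception, at 131 TPM in siChd4 against 114 TPM in siSCR (1.16-fold, 1.08 to 1.24). Sf3b4 and Sf3b1, subunits of 1 complex, differed in direction with intervals that do not overlap. Of SF3A, Sf3a1 was at 63.2 TPM in siChd4 against 68.5 TPM in siSCR (0.922-fold), Sf3a3 at 106 TPM in siChd4 against 113 TPM in siSCR (0.937-fold) and Sf3a2 at 75.3 TPM in siChd4 against 70.0 TPM in siSCR (1.08-fold, 0.983 to 1.18). Their median was -0.09.

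U2AF, which marks the end of the intron, was nearly equal in the libraries. Its summed level was 703 TPM in siChd4 against 708 TPM in siSCR, a fold of 0.993. U2af2, the subunit that binds the pyrimidine tract, was at 398 TPM in siChd4 against 415 TPM in siSCR (0.959-fold, 0.928 to 0.991). U2af1, the subunit that reads the AG, was at 247 TPM in siChd4 against 236 TPM in siSCR (1.05-fold), and its interval includes 1. Its paralog U2af1l4 was at 58.4 TPM in siChd4 against 57.6 TPM in siSCR (1.01-fold, 0.876 to 1.17), but it shares 65.6% of its annotated exon bases with the transcript unit Gm49396 on the same strand. The difference between the classes, from 0.819-fold in summed TPM for hnRNPs to 0.993-fold for U2AF, has no test here.

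Differences within the group followed the level of the gene. The 15 most abundant members, between 325 and 1759 TPM, had a median log2 ratio of -0.23, and 14 of them were below 0. The 418 genes of the table in that span of levels had a median of 0.00, and 209 of them were below 0. The next 15 members had a median of -0.11 with 12 below 0. In their span of levels, 666 genes had a median of -0.04, and 56.6% of them were below 0. The 14 least abundant members had a median of -0.03 with 7 below 0. The 11036 genes in that span had a median of -0.05 with 56.3% below 0. That span is wide because it takes in the pseudogene (mean 1.68 TPM) and Srsf12 (mean 4.4 TPM), both higher in siChd4. The rest of the 14 had means of 58.0 TPM or more, so this background is not matched to them in level. Across the 42 members of at least 50 TPM the Spearman rho of the log2 ratio with the mean level was -0.50, against 0.06 across the 4285 genes of at least 50 TPM. The 15 most abundant members are mostly hnRNPs, the class with the lowest summed fold, and level and class were not separated here. These points are genes of the same 2 libraries and not independent replicates, and the ratio and the mean share the same values.

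**Figure D3:**
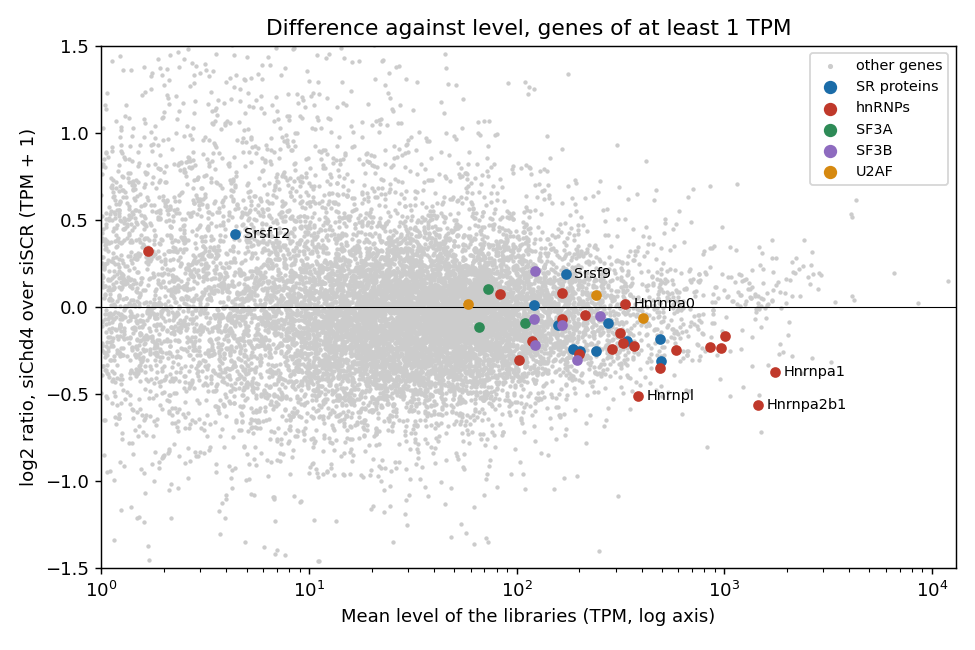
Log2 ratio against mean level on a log axis for the splicing factors (coloured by class) and for the other genes of at least 1 TPM (grey), of which 100 lie outside the drawn range of 1.5 in either direction. The abundant hnRNPs at the right lie below 0, where the grey genes of like level lie on both sides.

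Transcript length also bears on these ratios. Over all genes the Spearman rho of the log2 ratio with length was -0.18, and over the 44 members it was -0.32. With the trend over all genes subtracted, the median of the members was -0.12, and 33 of 44 were still below 0. Hnrnpd then had a log2 ratio of -0.14 and Sf3b1 one of -0.17. The subtraction left Hnrnpa2b1 at -0.56, Hnrnpl at -0.51 and Hnrnpa1 at -0.39.

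The table gives 1 value per gene and does not separate isoforms, so inclusion of poison exons was not measured. The transcript length behind each TPM gives a coarse view of the isoforms counted. Relative to other genes it differed by more than 2% for 4 of 44 members (9.09%), against 20.4% of all genes. These were Hnrnpa2b1 (1.04 times as long in siChd4), Hnrnpul1 (1.03), Hnrnpr (0.978) and Srsf4 (0.945), named after their values were seen. In GENCODE M21, 23 of 43 annotated members have a transcript marked for nonsense-mediated decay (53.5%), against 28.6% of other protein-coding genes of at least 1 TPM. By class these were 9 of 11 SR genes, 10 of 20 hnRNP genes, 3 of 3 U2AF genes, 1 of 6 SF3B genes and 0 of 3 SF3A genes. The 23 members had a median log2 ratio of -0.17 and the 20 without such a transcript one of -0.15, so the annotation did not separate them.

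Other genes of the splicing machinery leaned the same way. Across 9 lists of textbook membership with 102 genes, 77 were below 0 (75.5%). The share over all genes was 55.3%, which also stands beside the counts of each list below. Past the limit, 15 were lower (14.7%, against 17.1% of all genes) and 0 higher (against 14.9% of all genes). The median was -0.12, beside -0.16 for the 44 members. hnRNPs under other symbols had a median of -0.15 with 7 of 10 below 0. In that list Ptbp2 and Ptbp3, paralogs of the splicing repressor Ptbp1, were at 64.8 TPM in siChd4 against 107 TPM in siSCR (0.603-fold, 0.569 to 0.641) and 21.7 TPM in siChd4 against 36.2 TPM in siSCR (0.600-fold, 0.558 to 0.646). Syncrip was at 195 TPM in siChd4 against 267 TPM in siSCR (0.729-fold, 0.707 to 0.752). The more abundant Ptbp1 was at 275 TPM in siChd4 against 298 TPM in siSCR (0.923-fold).

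Sm and LSm proteins, which form the rings of the snRNPs, had 14 of 14 genes below 0 and a median of -0.19. Of these, 5 were past the limit on the lower side (35.7%, against 17.1% of all genes). Lsm5 was at 97.5 TPM in siChd4 against 148 TPM in siSCR (0.660-fold, 0.576 to 0.756). Lsm6 was at 73.3 TPM in siChd4 against 99.0 TPM in siSCR, and Snrpg at 208 TPM in siChd4 against 270 TPM in siSCR. SR-like proteins and SR kinases had 12 of 13 below 0 and a median of -0.14, and Srrm1, a coactivator, was the 1 past the limit, at 115 TPM in siChd4 against 145 TPM in siSCR. The U4/U6.U5 tri-snRNP list had 12 of 14 below 0 and a median of -0.15, with Snrnp40 past the limit at 96.8 TPM in siChd4 against 123 TPM in siSCR. All but 3 genes of these lists were below 0, where the share over all genes was 55.3%.

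U1 snRNP genes were split, with 5 of 8 below 0, a median of -0.14 and 0 past the limit. Its most abundant members, Snrnp70 (278 TPM in siChd4 against 266 TPM in siSCR) and Snrpc (187 TPM in siChd4 against 178 TPM in siSCR), were slightly higher in siChd4. U2-associated factors had 8 of 11 below 0 and a median of -0.11, with the helicase gene Ddx46 past the limit at 60.8 TPM in siChd4 against 76.5 TPM in siSCR. The list of Prp19 complex and catalytic step factors had a median of -0.04 with 8 of 14 below 0, and Aqr, an intron-binding helicase gene, was at 52.5 TPM in siChd4 against 68.2 TPM in siSCR.

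**Figure D4:**
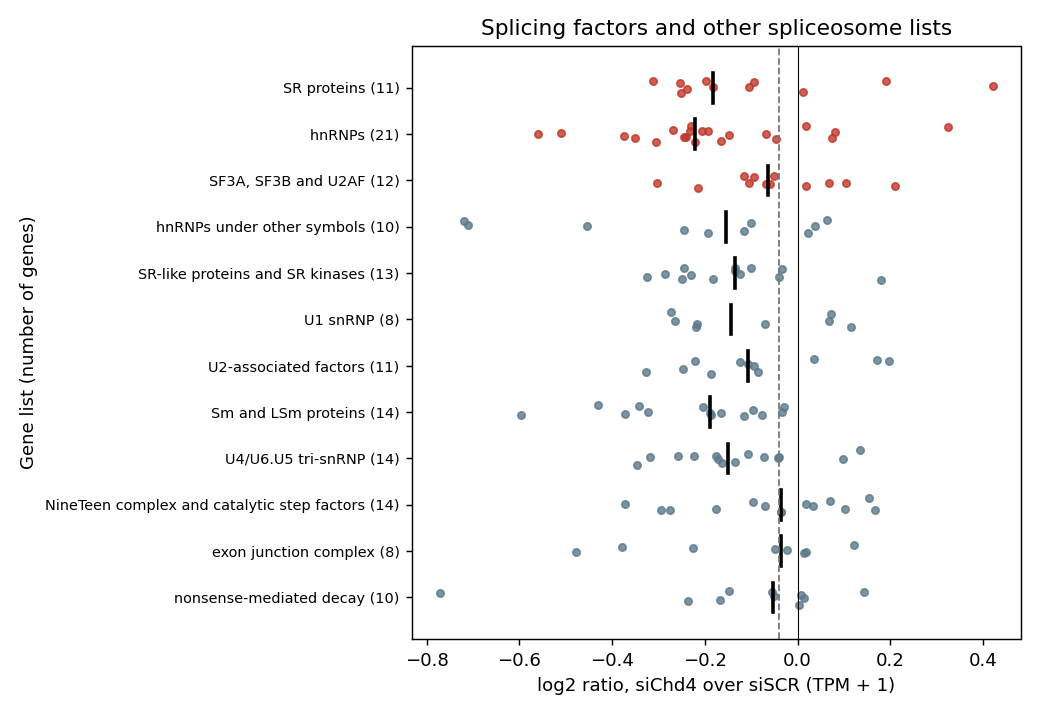
Log2 ratio of each gene (points) and the median (black bar) for the SR proteins, the hnRNPs and the other 12 members (red) and for 9 other lists (blue), with the number of genes in parentheses. The dashed line is the median of all genes (-0.04), and the medians lie to the left of it for the 9 other lists, except those of the Prp19 complex and the exon junction complex, which lie just to its right.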

How the data were processed

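RNA was sequenced from 1 siChd4 and 1 siSCR library. Per the file headers, the authors deposited TPM, FPKM and read counts per gene. The deposited counts are estimated counts, since most are not whole numbers. Per the submitters' processing notes, mm39 was used. The aligner, the counting tool and any use of strand were not given in the sources used here. At 20072009 (siChd4) and 19816811 (siSCR) estimated counts, 3 counts amount to 0.149 CPM in siChd4 and 0.151 CPM in siSCR.

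Genes were kept from a mean TPM of 1. Ratios used a pseudocount of 1. Intervals are 95% Clopper-Pearson on rounded counts, scaled to the TPM fold; PCR copies are not independent molecules. Transcript length was taken as the count over FPKM. Genes of like level and length lay within 0.5 on the log2 scale in both. TMM factors came from edgeR 4.0.16 on counts rounded to whole numbers. The length trend was a lowess (span 0.3, statsmodels 0.14.6). The interval and trend code was tested on simulated data. GENCODE M21 and RefSeq promoters are on GRCm38, so they gave annotation and sequences only, with no join by coordinates.

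The members and lists were chosen with earlier results of these data known. Named genes are all members, Chd4, and of each list up to 3 per direction past the limit (a log2 ratio of 0.32), or the 2 most abundant. Ptbp1, Map2 and Rbfox3 were added after their values were seen. Fabp7, Pax6, Sox1 and Msi1 are also named outside this rule. Protein sequences were not analysed here.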

Additional observations from a re-analysis of the deposited data

How the results depend on the processing

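The number of members with a log2 ratio below 0 was 33 as reported, 31 on FPKM, 34 in CPM with TMM scaling and 33 under each of the other scalings. The share of all genes below 0 was 55.3% as reported, 47.7% on FPKM and 51.3% in CPM with TMM scaling. Named member values under other settings numbered 393. Of these, 340 moved by less than the distance from the middle of their counting interval to its end, on the log2 scale. Of those past the limit, 0 turned sign. Near 0, Hnrnpr (0.01 on FPKM), Sf3b2 (0.007 on FPKM) and Srsf4 (-0.03 in CPM) did. Hnrnpa2b1, Hnrnpl and Srsf12 stayed past the limit under every scaling, pseudocount and trend setting. On FPKM the medians were -0.097 (all members), -0.124 (SR proteins), -0.162 (hnRNPs), -0.035 (SF3A), -0.028 (SF3B) and 0.074 (U2AF), and 2 members were lower and 1 higher. FPKM has another scaling between the libraries than TPM. With the length trend subtracted the medians were -0.142 (hnRNPs) and -0.028 (SF3A), and 1 member was higher. In CPM with TMM scaling 1 was higher, and the cause was not tested. With the filter at a mean TPM of 5, 0 were higher, because both such genes are below that level. At 1.5-fold and at 2-fold 0 were lower and 0 higher. Leaving out the pseudogene, chosen after the data were seen, left 1 higher. The limit set against the median of all genes and the background of genes of at least 50 TPM were also chosen after the data were seen. Depth limits Srsf12 and the pseudogene. No paired analysis was possible because there was only 1 library per condition, which also left no replicate to leave out.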

Other observations

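Several splicing factor genes have a neighbour that starts from the other strand close by. In GENCODE M21, 14 of the 44 have such a start within 1000 bases upstream, and 9 of these neighbours had a mean level of at least 1 TPM. Of the 9, 8 had a log2 ratio below 0, where the share over all genes was 55.3%, and so had 7 of their 9 splicing factors. Neighbour and splicing factor had the same sign in 6 of the 9 pairs. Gla and Hnrnph2, Pbld2 and Hnrnph3, and Ccdc157 and Sf3a1 differed in sign. The intervals of Gla (0.831 to 1.15), Pbld2 (0.360 to 1.09), Ccdc157 (0.937 to 1.18) and 4930524J08Rik, beside Hnrnpd, (0.307 to 1.60) include 1. The neighbours of Hnrnpa1 and Hnrnpa2b1 encode HP1 chromatin proteins. Cbx5, which starts 616 bases from Hnrnpa1, was at 167 TPM in siChd4 against 265 TPM in siSCR (0.630-fold, 0.615 to 0.644). Cbx3, which starts 466 bases from Hnrnpa2b1, was at 603 TPM in siChd4 against 719 TPM in siSCR (0.839-fold, 0.815 to 0.864). Both were lower in siChd4, as were their neighbours. Lrrc40, 23 bases from Srsf11, was at 36.7 TPM in siChd4 against 67.9 TPM in siSCR (0.540-fold, 0.495 to 0.589), beside 0.930-fold for Srsf11. These pairs were looked up after the values were seen.

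Genes that act after splicing were near the median of all genes. The exon junction complex list had a median of -0.04 with 5 of 8 below 0, but the paralogs Magoh (85.4 TPM in siChd4 against 111 TPM in siSCR, 0.767-fold) and Magohb (0.710-fold, 0.572 to 0.877) were past the limit. The nonsense-mediated decay list had a median of -0.05 with 6 of 10 below 0. Smg1, the kinase that acts on Upf1, was at 21.5 TPM in siChd4 against 37.4 TPM in siSCR (0.575-fold, 0.548 to 0.603).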
